A study of Caenorhabditis elegans with 15 samples.

Results

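The myosin chains and paramyosin build the thick filaments of worm muscle and the contractile bundles of other cells. The set described here has 9 genes of Caenorhabditis elegans, chosen by symbol: the muscle myosin heavy chain genes myo-3 and unc-54, the paramyosin gene unc-15, the muscle light chain genes mlc-1, mlc-2 and mlc-3, the nonmuscle regulatory light chain gene mlc-4, and the nonmuscle heavy chain genes nmy-1 and nmy-2. Of these, 8 have an entry among the 14831 genes of the deposited table of counts, and unc-54 has none. After a filter on low counts 6 of the 9 could be tested (mlc-2, mlc-3, mlc-4, myo-3, nmy-1 and nmy-2), and mlc-1 and unc-15 did not pass it. Of the 6, mlc-3 passed on 22 reads in 1 library of day 12 muscle, so comparisons without day 12 muscle could not call it.

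A myosin motor is a pair of heavy chains, each of which binds an essential and a regulatory light chain. In body-wall muscle of the worm, heavy chains of the unc-54 and myo-3 genes assemble around a core of paramyosin, with the myo-3 product in the middle of the filament. Outside muscle, the nonmuscle heavy chains work with the mlc-4 light chain in cell division, cell polarity and the elongation of the embryo.

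In worms many messenger RNAs begin with a spliced leader, a short RNA added in front of the first exon by trans-splicing. The study expressed a leader that carries a tag in chosen tissues, then captured and sequenced the tagged RNA. The tagged SL1 leader was expressed in multiple tissues (mixed stage, strain PU2-3::tag:SL1(G16C), 2 libraries), in muscle (Pmyo-3::tag:SL1(G16C), 8 libraries) and in all neurons (Prgef-1::tag:SL1(G16C), 4 libraries). Muscle was taken from L1 larvae (1 library), L2 larvae (1), dauer larvae, the arrested larval stage (2), young adults (2) and day 12 adults (2), and neurons from young adults (2) and day 12 adults (2). A further mixed-stage muscle library carries a tagged SL2 leader by its title and strain (Pmyo-3::tag:SL2(T5A)), whereas its description names SL1. Worms were grown at 20 °C. Day 12 animals, with the young adult as day 1, were kept on 400 µM fluorodeoxyuridine, which means that age cannot be told apart from the drug, and dauers came from liquid culture and were purified with detergent and left to recover overnight. The promoter of myo-3, itself one of the 9 genes, drove the tag in muscle, and the groups are called muscle, neurons and multiple tissues by these promoters. Every comparison with multiple tissues changes stage along with tissue, and all of them share the same 2 control libraries.

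Libraries held between 57104 and 9587967 reads assigned to genes, with the day 12 neurons the shallowest. Levels are given as CPM (counts scaled to library size with edgeR's TMM factors), with the SD over 2 libraries. Markers of body-wall muscle other than the 9 genes summed to 2962 to 18522 CPM in the muscle groups, where 6 of 8 had reads, against 21.8 to 31.8 CPM in multiple tissues. In neurons they summed to 3.63 to 10.8 CPM in young adults and 32.4 to 57.2 CPM on day 12. Neuron markers, of which 7 of 9 had reads in young adult muscle, summed there to 4054 to 4553 CPM, against 4706 to 5735 CPM in young adult neurons and 495 to 546 CPM in multiple tissues, and their part in the comparisons was not tested. Of the 5 pharyngeal muscle markers none had a read in L1, L2, dauer or young adult muscle, whereas 2 did in day 12 muscle (16.9 to 32.7 CPM) and in day 12 neurons (10.8 to 25.4 CPM), with myo-1 and myo-2 at 0. The body-wall markers pat-10 and hlh-1 were without a read or an entry in every group. Dauer muscle replicate 2 stood apart from replicate 1, with reads on 4569 genes from 9587967 reads against 7945 genes from 1974529, and the day 12 muscle libraries differed in depth (464359 and 1684401 reads). Dauer and day 12 results are therefore given without some or all of these 3 libraries as well.

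The 5′ ends carried the tag in different places along the 9 genes, and the table of gene counts holds only part of their reads. The site table lists reads by splice acceptor site, the base where the leader was joined. The authors class a site as trans, cis (the acceptor of an ordinary intron) or antisense, and the gene counts are sums over trans sites. The 9 genes had 32 sites with reads: 11 trans, 14 cis and 7 antisense. Positions below are the first base after the junction, numbered on WBcel235, the assembly of the annotation used here. The build of the deposited files is not given in the sources used here, but 90.6% of all cis sites fall on WBcel235 exon starts.

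In 5 genes nearly all trans reads fell on 1 site just in front of the start codon. For mlc-2 (WBGene00003370, chromosome X, 17455792 to 17456586) this was position 17456586 on the minus strand, the annotated start of the gene and 19 bases before its start codon. It held 99735 of 99753 trans reads (99.982%, Wilson 95% interval 99.9715 to 99.9886, which covers counting error only), and the other 18 lay at 17456582. For myo-3 (WBGene00003515, chromosome V, 12226817 to 12234343, minus strand) it was position 12234343, 43 bases before the start codon, with 2574 of 2631 trans reads (97.8%). The remaining 57 lay 5 bases on, at 12234338, and came from L2 muscle. For mlc-4 (WBGene00003372, chromosome III, 3392514 to 3393787, minus strand) it was position 3393787, 6 bases before the start codon, with 9738 of 9741 reads. The sole trans sites of nmy-1 (chromosome X, 2909538, plus strand) and nmy-2 (chromosome I, 7934577, minus strand) lay 18 and 34 bases before their start codons and held 251 and 357 reads.

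The other 4 genes were read mainly or wholly at cis sites. The essential light chain gene mlc-3 (WBGene00003371, chromosome III, 5565025 to 5567382, plus strand) had 22 trans reads, at 5564997, 135 bases before the start codon and ahead of the annotated gene. It had 27588 reads at a cis site, the start of its exon 3 at 5566674, by which point 231 coding bases (50.3% of the coding length) lie upstream. The regulatory light chain gene mlc-1 (WBGene00003369) had 13 trans reads at chromosome X, 17459131, plus strand, ahead of the annotated gene, and 93 cis reads at the start of its exon 2 at 17459492. The heavy chain gene unc-54 (WBGene00006789, chromosome I, 14855901 to 14863482, minus strand) had 332 reads, all at the start of its exon 4 at 14862026. Paramyosin (unc-15, WBGene00006754, chromosome I, 7376604 to 7383197, minus strand) had 2 trans reads at 7383152 and cis reads at 3 exon starts: 103 at exon 2 (7381830), 177 at exon 6 (7380286) and 314 at exon 11 (7377321).

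**Figure D1:**
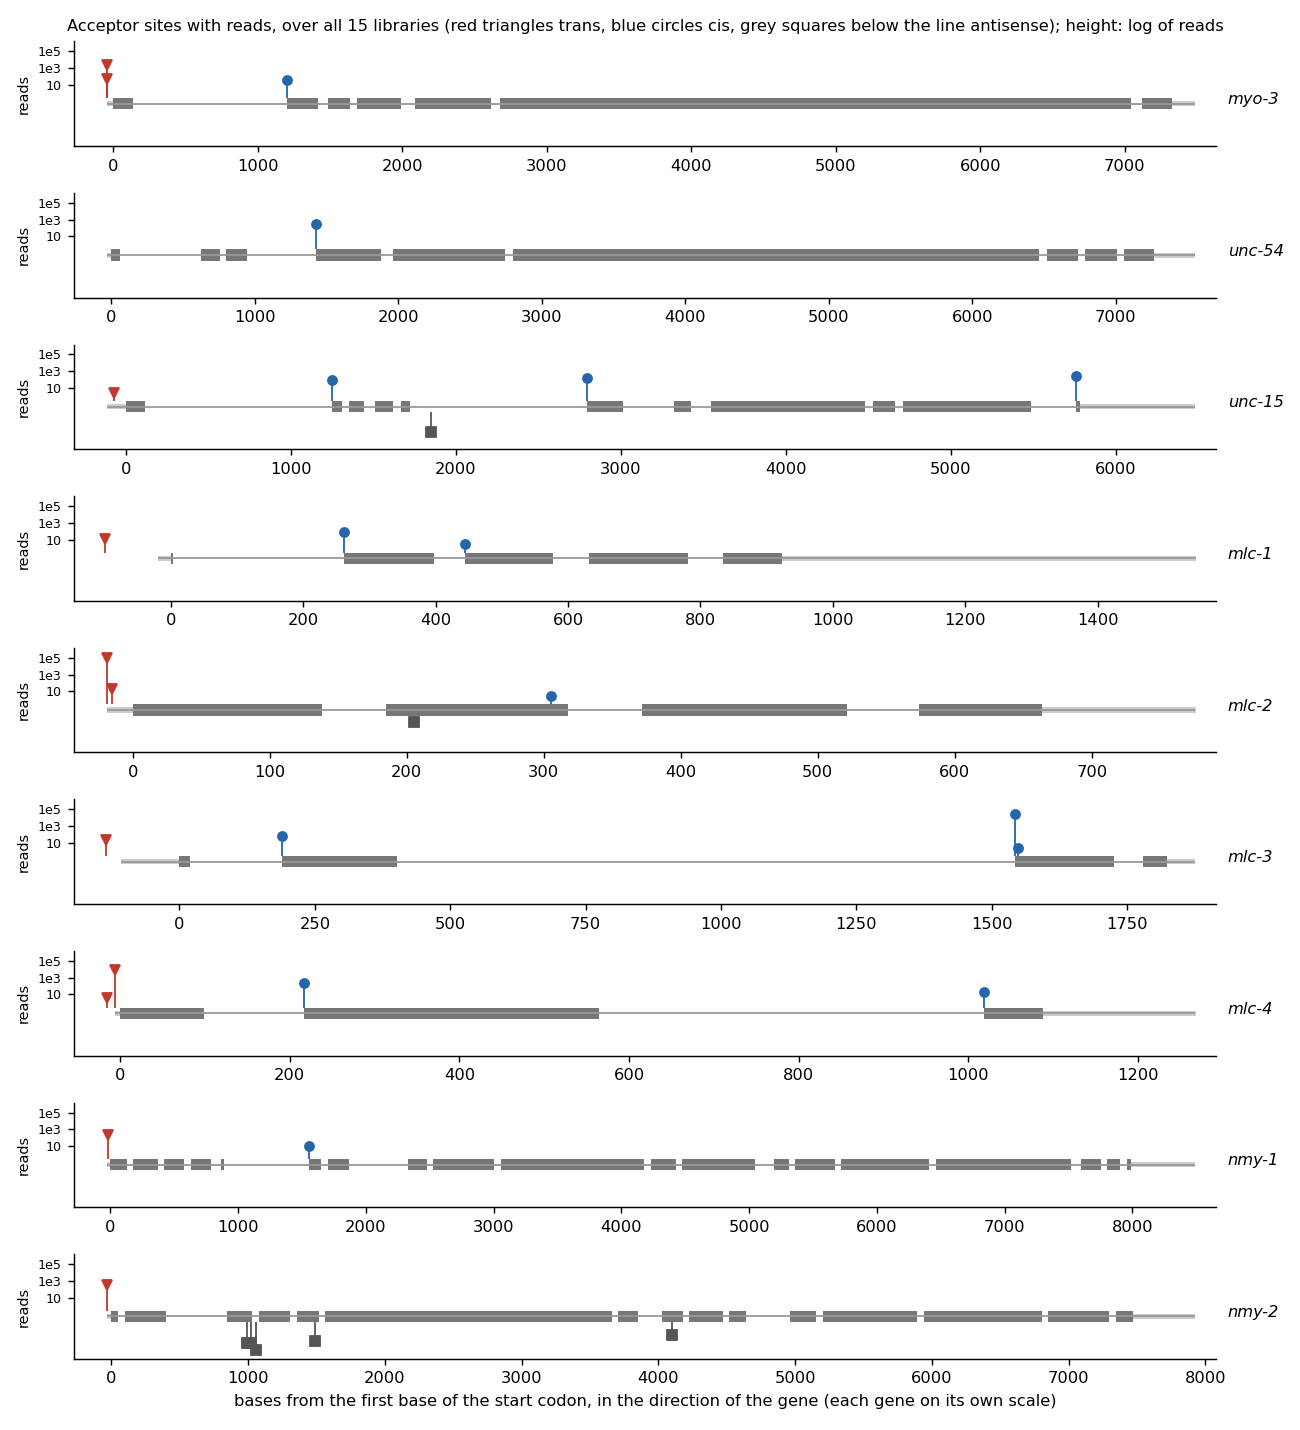
Exons (grey, coding part taller) and acceptor sites of the 9 genes, with bases from the start codon on the horizontal axis (each gene on its own scale) and the reads summed over all 15 libraries on a log scale as height. Trans sites (red triangles) sit at the start of myo-3, mlc-2, mlc-4, nmy-1 and nmy-2, whereas unc-54, unc-15, mlc-1 and mlc-3 have most reads at cis sites (blue circles), and nmy-2 has antisense sites (grey squares, below the line).

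The authors' deposited table classes 6 of the 9 genes as trans-spliced and mlc-1, unc-15 and unc-54 as not. The same 3 genes had 13, 2 and 0 trans reads here, and mlc-3, classed as trans-spliced, had 22. The genes mlc-1 and mlc-2 encode nearly identical light chains from neighbouring, divergent genes whose starts lie 2623 bases apart. How the authors placed reads that match both is not given in the sources used here, so the split between them is uncertain, although the 2 trans sites are at different places.

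Among the heavy chains, myo-3 was read in muscle and almost nowhere else. Its CPM was 90.4 in L1, 348 in L2, 14.6 and 160.4 in dauer, 150.4 and 80.1 in young adults, and 0 and 21.9 on day 12. Multiple tissues held 0 and 1 reads (0 and 0.382 CPM) and the 4 neuron libraries none, where 3 counts over both young adult libraries would be 5.43 CPM. Each SL1-tag muscle library except day 12 replicate 1 lay above each multiple-tissue and neuron library. The 2 dauer libraries differed by far more than the 2 young adult libraries.

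None of the 10 comparisons of myo-3 passed the threshold. The log2 fold changes of the muscle groups over multiple tissues lay between 5.30 on day 12 and 9.25 in larvae, with SE of 2.19 to 2.47, and the smallest edgeR adjusted p was 0.062, in larvae. With 1 read in the control group these fits carry wide errors, and the call depends on the setting. In young adult muscle edgeR's adjusted p was 0.0903, it ranged from 0.000504 (no filter on low counts) to 0.0976 (DESeq2's size factors) over the other settings, and from 0.0414 to 0.297 with 1 library left out. Without dauer replicate 2 and both day 12 muscle libraries myo-3 was called in young adult (edgeR adjusted p = 0.00206) and larval muscle (0.00148), and dauer was left with 1 library. All genes called rose under that setting too, from 458 to 2868 in young adults and from 628 to 3224 in larvae. Without day 12 replicate 2 the day 12 value was -2.11. Young adult muscle exceeded young adult neurons at least 21.2-fold (at least 10.6-fold with any 1 library left out; edgeR adjusted p = 0.0866, not past the threshold). The authors' deposited table gives myo-3 as enriched over multiple tissues in young adult, dauer and larval muscle (fold changes of 603, 402 and 2555) and not on day 12 (56.0, adjusted p = 0.963). Their larval group was not matched to the L1 and L2 libraries here, so their larval values may cover other samples.

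The second muscle heavy chain, unc-54, was seen at its exon 4 cis site in larvae and young adults. It had 42 reads in L1, 263 in L2, 5 in dauer replicate 2, and 6 and 16 in young adult muscle. Both multiple-tissue libraries, dauer replicate 1, both day 12 muscle libraries, all neuron libraries and the SL2-tag library held 0. Scaled over trans and cis reads, this is 37.7 CPM in L1, 95.7 in L2 and 6.62 ± 0.895 (SD, n = 2) in young adults. Larval muscle stood at least 117-fold above multiple tissues (at least 47.7-fold with any 1 library left out). The edgeR adjusted p was 0.0592 in a fit of trans and cis reads over 12235 genes, and from 0.0213 (without dauer replicate 1) to 0.278 (without multiple-tissue replicate 2) with 1 library left out.

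The light chain mlc-2, a regulatory light chain of muscle myosin, was read in every muscle library. It had 42 and 76 reads in multiple tissues, 10520 in L1, 17629 in L2, 2329 and 10415 in dauer, 12493 and 27669 in young adult muscle, and 1717 and 16344 in day 12 muscle. In neurons it had 0 and 0 trans reads in young adults and 12 and 11 on day 12. Scaled to library size, every SL1-tag muscle library lay above every multiple-tissue and neuron library, and among them the dauer libraries were lowest. In bulk samples such as these, fewer cells of a type and less RNA per cell cannot be told apart.

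Ordered by level, mlc-2 stood at 16398 CPM in L1 and 16358 ± 421 (SD, n = 2) in young adult muscle, with L1 inside the young adult range. L2 followed at 11296 CPM. Day 12 muscle had 6384 ± 5418 CPM, from 2553 in replicate 1 to 10216 in replicate 2, just under L2. Dauer muscle had 1053 ± 111 CPM and overlapped no other group. Day 12 neurons had 99.8 ± 42.3 CPM, multiple tissues 27.3 ± 2.34, and young adult neurons no trans read. Neither L1 nor L2 has a replicate, and day 12 muscle varied more between its libraries than dauer, young adult or multiple-tissue samples did.

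**Figure D2:**
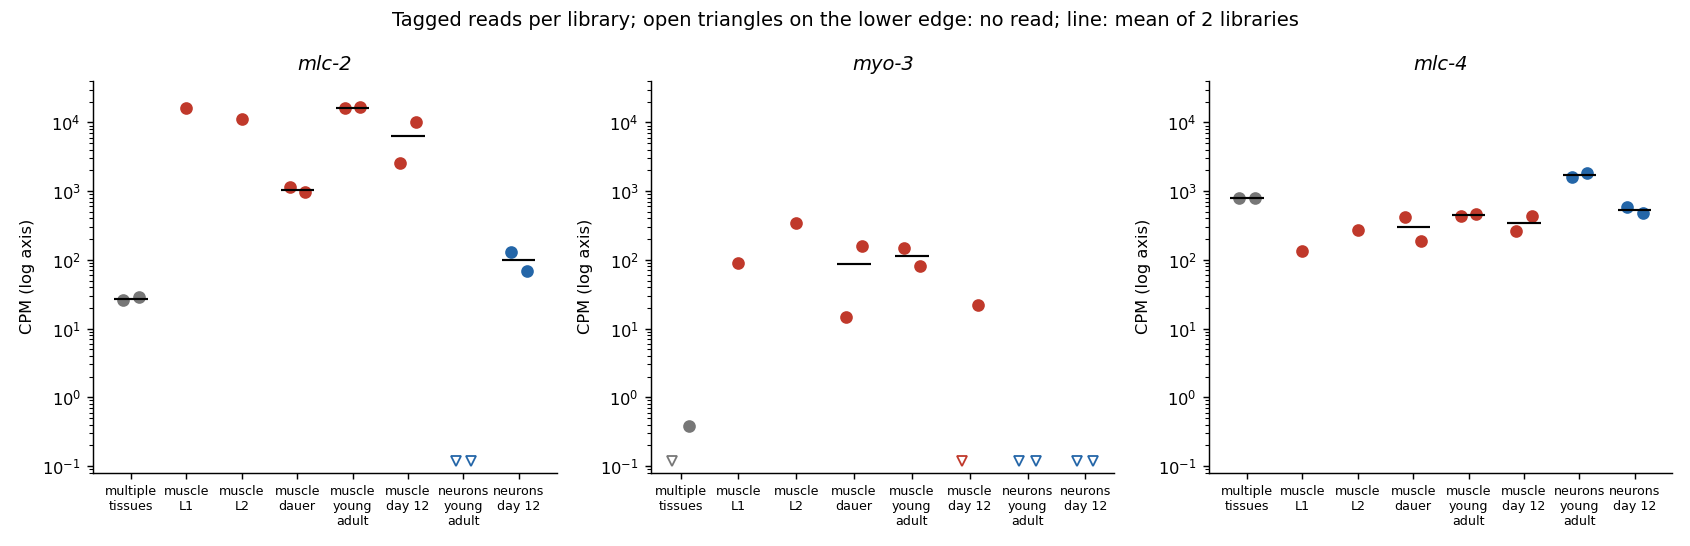
CPM of mlc-2, myo-3 and mlc-4 by group on a log axis, with 1 point per SL1-tag library, a line at the mean of 2 libraries where both have reads, and open triangles for libraries without a read. For mlc-2 the muscle libraries lie between 975 and 16656 CPM and the multiple-tissue libraries at 25.7 and 29.0, whereas mlc-4 lies highest in young adult neurons.

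The level of mlc-2 was higher than in multiple tissues in all 4 muscle comparisons, and it was the sole member called higher in any of them. The log2 fold change was 9.22 ± 0.78 (SE) in young adults (edgeR adjusted p = 0.00035), where 1 of 6 tested members was called and 5.12% of all tested genes were. It was 8.95 ± 0.77 in larvae (edgeR adjusted p = 0.000391), where 2 of 6 members (mlc-2 higher, mlc-4 lower) and 7.01% of tested genes were called. On day 12 it was 7.86 ± 0.74 (edgeR adjusted p = 0.000479), with 1 of 6 members and 9.82% of tested genes called. In dauer it was 5.26 ± 0.66 (edgeR adjusted p = 0.00198), with 1 of 6 members and 7.45% of tested genes called. These 4 calls held under every alternative and with each of the 14 libraries left out, with the largest leave-out edgeR adjusted p of 0.0112 in dauer. Without dauer replicate 2 and both day 12 muscle libraries the values were 9.12 in young adults, 8.87 in larvae and 5.25 in dauer, and without day 12 replicate 1 or 2 the day 12 value was 8.41 or 6.42. The authors' deposited table also gives mlc-2 as enriched in muscle over multiple tissues, with fold changes of 595 (young adults), 475 (their larval group), 236 (day 12) and 32.6 (dauer).

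Between muscle stages, mlc-2 was lower in dauer than in larvae, with a log2 fold change of -3.69 ± 0.61 (edgeR adjusted p = 0.0166), the sole member called of 6 tested, with 3.29% of tested genes called. The call was lost without dauer replicate 1 (edgeR adjusted p = 0.0537), dauer replicate 2 (0.0842) or young adult muscle replicate 1 (0.0546). Its value stayed between -3.97 and -3.43 whichever library was left out. Without dauer replicate 2 and both day 12 muscle libraries, which leaves 1 dauer library, the values were -3.61 for mlc-2, -3.62 for myo-3 and 1.10 for mlc-4. The authors' deposited table gives mlc-2 in dauer a fold change of 0.0743 over their larval group, with an adjusted p of 0.121. That group may cover other samples than L1 and L2. Between day 12 and young adult muscle no member was called by edgeR at an adjusted p under 0.05 (1.55% of tested genes were), nor between young adult and larval muscle (1.22%). At an unadjusted p under 0.05, mlc-2 was lower on day 12 than in young adults (log2 fold change -1.36 ± 0.55, edgeR adjusted p = 0.23), and with 1 library left out the value ranged from -2.69 (without day 12 replicate 2, edgeR adjusted p = 0.0212) to -0.69 (without day 12 replicate 1; 0.306), and the highest edgeR adjusted p was 0.522, without young adult replicate 2. The young adult and larval values of mlc-2 differed by 0.27 ± 0.55 on the log2 scale (edgeR adjusted p = 1.00).

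In neurons mlc-2 had few or no trans reads. Against young adult neurons, young adult muscle was at least 3011-fold higher (at least 1503-fold with any 1 library left out; edgeR adjusted p = 9.51e-05), with 2 of 6 members and 13.1% of tested genes called. Young adult neurons also lay below multiple tissues, where the level was at least 5.03-fold higher (at least 2.51-fold with any 1 library left out; edgeR adjusted p = 0.00925), with 1 of 6 members and 17% of tested genes called. This call was lost without neuron replicate 1 (edgeR adjusted p = 0.0567) or 2 (0.0533). The authors' deposited table gives mlc-2 in young adult neurons a fold change of 0 over multiple tissues, with an adjusted p of 0.157. Young adult neuron replicate 2 held 2 cis reads of mlc-2. With trans and cis reads the log2 fold change of young adult neurons over multiple tissues was -3.52 (edgeR adjusted p = 0.0204). On day 12 neurons no member was called (12.1% of tested genes were), and mlc-2 had a log2 fold change of 1.84 ± 0.61 over multiple tissues (edgeR adjusted p = 0.0829). With DESeq2's size factors it was 3.22 (0.00454), with trans and cis reads 1.30 (0.191), and with 1 library left out it ranged from 1.09 to 2.04 (edgeR adjusted p from 0.0132 to 0.416). The day 12 neuron libraries are shallow, so that 1 read is 10.8 and 6.35 CPM in them. All 6 body-wall muscle markers with an entry also had reads there, against 2 in young adult neurons, and the part of muscle RNA in these values was not tested.

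**Figure D3:**
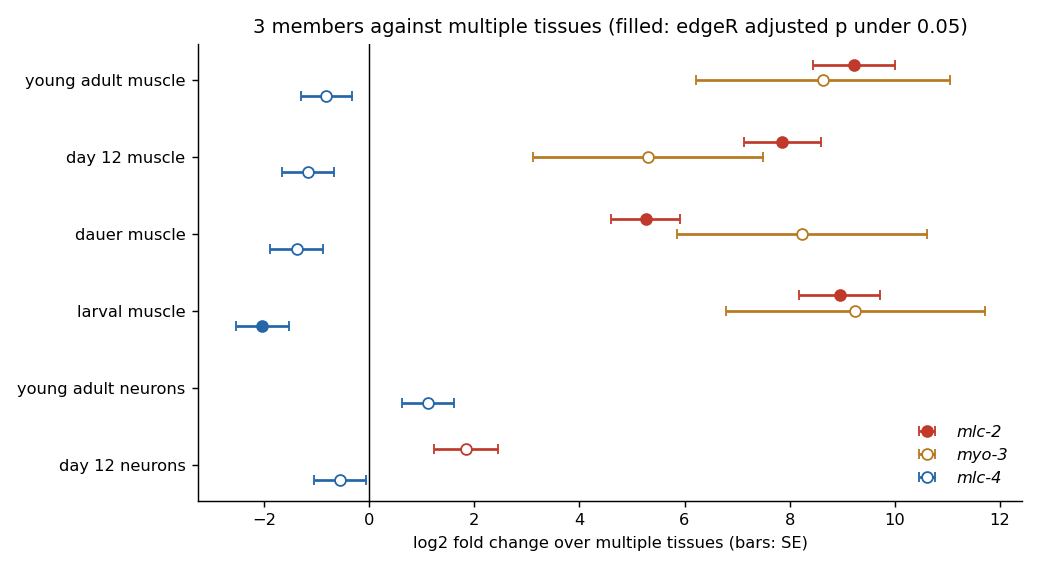
Log2 fold changes over multiple tissues (points) with SE (bars) for mlc-2, myo-3 and mlc-4 in 6 groups, filled where the edgeR adjusted p was under 0.05. Not drawn are mlc-2 in young adult neurons and myo-3 in both neuron groups, where no trans read was found. In muscle mlc-2 lies between 5.26 and 9.22 with narrow bars, myo-3 between 5.30 and 9.25 with wide bars, and mlc-4 below 0.

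In the SL2-tag muscle library, mlc-2 was the sole member with trans reads, 496 of 2520944 (197 RPM, that is, scaled to the library total, Wilson 95% interval 180.2 to 215). The other 7 members with an entry had 0 trans reads there, which allows up to 1.19 RPM of trans reads each. With 1 SL2-tag library the difference has no replicate check.

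The essential light chain mlc-3 was read in muscle at the acceptor of its exon 3 (chromosome III, 5566674). That site had 7375 reads in L1, 16531 in L2, 23 and 0 in dauer, 162 and 480 in young adult muscle, and 65 and 2945 in day 12 muscle. Multiple tissues had 0 and 0, the neuron libraries 0 except 7 in young adult replicate 2, and the SL2-tag library 0. Larval libraries were highest, dauer libraries lowest within muscle, and the 2 day 12 libraries far apart. A further 72 reads fell on the start of exon 2 at 5565321, in L1, L2, dauer replicate 1 and young adult replicate 2. All 22 trans reads of mlc-3 came from day 12 muscle replicate 2.

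Counted over trans and cis reads, mlc-3 stood at 6648 CPM in L1, 6020 in L2, 193 ± 44.1 (SD, n = 2) in young adults, 779.8 ± 979 on day 12, and 12.0 and 0 in the dauer libraries. Larval muscle was at least 11085-fold above multiple tissues (at least 4526-fold with any 1 library left out; edgeR adjusted p = 0.0164). In that fit 4 members were called in larvae (mlc-3, mlc-2 and myo-3 higher, mlc-4 lower), with 10.3% of tested genes called. Without multiple-tissue replicate 1 the edgeR adjusted p of mlc-3 was 0.0514. On day 12 mlc-3 was at least 1365-fold above multiple tissues (at least 153-fold with any 1 library left out; edgeR adjusted p = 0.0298), with 2 members (mlc-3 and mlc-2) and 10.1% of tested genes called. That call was lost without either multiple-tissue, young adult muscle or day 12 neuron library, or without day 12 replicate 2 (edgeR adjusted p between 0.0604 and 0.103). In young adults the bound was 338-fold (138-fold with any 1 library left out), and mlc-3 did not pass the threshold (edgeR adjusted p = 0.0615, and from 0.0158 to 0.193 with 1 library left out). Dauer against larvae also missed it, at a log2 fold change of -10.13 ± 2.56 (edgeR adjusted p = 0.065, and from 0.0219 to 0.136 with 1 library left out).

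Reads at cis sites were not equally common in all libraries. They made up 3.91% and 3.95% of site reads in multiple tissues, 29.6% in L1, 39.8% in L2, 12.8% to 20.4% in the other SL1-tag muscle libraries and 50.6% to 54.2% in neurons. Among genes with at least 1000 trans and cis reads, the share with over 99% of them at cis sites was 19.7% (39 genes) in L1 and 25.9% (102 genes) in L2, mlc-3 among them, and 3.79% and 3.66% in multiple tissues. In the neuron libraries mlc-3 and unc-54 had 7 cis reads in all. The part of the differing cis shares in the cis values of these 2 genes was not tested.

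**Figure D4:**
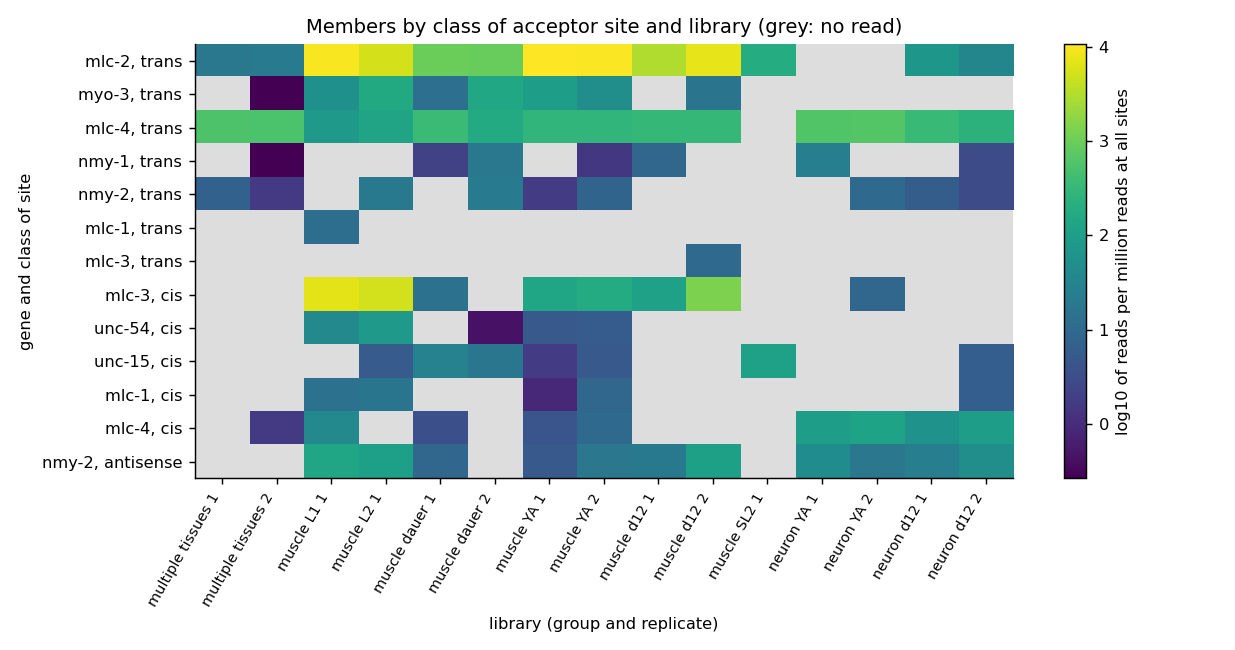
RPM of each member (scaled to the reads at all sites), as log10 colours, by class of acceptor site (vertical axis) in the 15 libraries (horizontal axis), with grey where no read was found. Trans reads of mlc-2 fill the muscle columns and those of mlc-4 every SL1-tag column, whereas cis reads of mlc-3 and unc-54 are absent from multiple tissues.

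The third muscle light chain gene, mlc-1, had reads in few libraries. Its 13 trans reads came from L1. At the exon 2 cis site it had 15 reads in L1, 53 in L2, and 1 and 24 in young adult muscle, with 0 in multiple tissues, dauer, day 12 muscle and neurons. Its exon 3 site had 2 reads, in day 12 neuron replicate 2.

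Paramyosin reads were sparse and spread over 3 cis sites that were used in different libraries. The exon 6 site (chromosome I, 7380286) had 40 and 131 reads in dauer and 2 and 4 in young adult muscle. The exon 2 site had 18 reads in L2, 14 and 61 in dauer and 10 in young adult replicate 2. The exon 11 site at 7377321, with 99.1% of the coding length upstream of it, had 299 reads in the SL2-tag library, 13 in dauer replicate 1 and 2 in day 12 neuron replicate 2. Multiple tissues held none at any of these sites. The 2 trans reads of unc-15 came from young adult neuron replicate 1, which held no cis read of it.

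The nonmuscle regulatory light chain mlc-4 was the sole member with reads in all 14 SL1-tag libraries. It had 1290 and 2051 reads in multiple tissues, 87 in L1, 424 in L2, 861 and 1983 in dauer, 334 and 772 in young adult muscle, 179 and 692 in day 12 muscle, 437 and 501 in young adult neurons and 55 and 75 in day 12 neurons. By level it was highest in young adult neurons (1699 ± 160.0 CPM, SD, n = 2), then multiple tissues (786 ± 4.71), day 12 neurons (536 ± 83.7) and young adult muscle (447 ± 25.0). Day 12 muscle (349 ± 118), dauer (302 ± 165), L2 (272) and L1 (136) followed. The range of day 12 muscle overlapped those of young adult and dauer muscle, L2 lay within that of dauer, and the top 4 groups did not overlap each other.

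Over multiple tissues, mlc-4 was lower in larval muscle, with a log2 fold change of -2.03 ± 0.51 (edgeR adjusted p = 0.0421). It did not pass in young adult (-0.81 ± 0.49, edgeR adjusted p = 0.373), day 12 (-1.17 ± 0.50; 0.156) or dauer muscle (-1.38 ± 0.50; 0.129). In young adult neurons it was 1.11 ± 0.50 (edgeR adjusted p = 0.14), which DESeq2's size factors moved to 2.25 (0.00686). On day 12 neurons it was -0.56 ± 0.50 (0.458), which those factors moved to 0.83. The same change of scaling moved the median log2 fold change of all tested genes from -2.05 to -1.19 in young adult neurons, from -0.62 to 0.00 in day 12 neurons and from -0.29 to 0.00 in day 12 muscle. Compared directly, young adult muscle lay below young adult neurons by a log2 fold change of -1.93 ± 0.51 (edgeR adjusted p = 0.0323).

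Both mlc-4 calls rest on few libraries. The larval call was lost without either multiple-tissue library (edgeR adjusted p = 0.146 and 0.174), L1 (0.219), L2 (0.0624), or either young adult muscle library (0.0814 and 0.08). The call between young adult muscle and neurons was lost without either library of multiple tissues, young adult muscle or young adult neurons, with edgeR adjusted p between 0.068 and 0.181 and values between -2.02 and -1.83. It was also lost with limma (-1.62, adjusted p = 0.0546), and in edgeR with no filter (-1.90, adjusted p = 0.0519), with trans and cis reads (-1.57; 0.0783) and with a replicate block (-1.93; 0.0528), whereas DESeq2's size factors gave -3.04 (0.00216). The block also ended the larval call (-2.07, edgeR adjusted p = 0.062). The authors' deposited table gives mlc-4 a fold change of 0.581 over multiple tissues in their larval group (authors' adjusted p = 0.351), which may cover other samples than L1 and L2. It also gives 0.565 in young adult muscle (5.08e-05), 0.321 in dauer (8.7e-07) and 2.16 in young adult neurons (0.000669). On day 12 it gives 0.464 in muscle (0.44) and 0.788 in neurons (0.631). Without dauer replicate 2 and both day 12 muscle libraries the comparisons with multiple tissues were called as well, lower for mlc-4 in young adult muscle (-0.91, edgeR adjusted p = 0.0349) and higher in young adult neurons (0.95; 0.0217). All genes called rose under that setting too, from 458 to 2868 in young adult muscle and from 1523 to 4267 in young adult neurons. Germline markers, of which 9 of 9 had reads in multiple tissues, summed to 7036 to 7270 CPM there. In muscle they summed to 199 to 870 CPM, with egg-1, puf-5 and daz-1 at 0 in every muscle group. In young adult neurons 3 of 9 had reads, at 2354 to 2438 CPM. Their part in the mlc-4 differences was not tested. At the exon 2 cis site (chromosome III, 3393564) mlc-4 had 73 and 100 reads in young adult neurons, 9 and 31 in day 12 neurons, 42 in L1 and at most 13 in any other library.

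The nonmuscle heavy chains nmy-1, which acts in the elongation of the embryo, and nmy-2, which drives cytokinesis and polarity in the early embryo, were read sporadically. Of nmy-1 there were 217 reads in dauer replicate 2, 18 in young adult neuron replicate 1, 5 each in dauer replicate 1 and day 12 muscle replicate 1, 4 in young adult muscle replicate 2, 1 in multiple-tissue replicate 2 and 1 in day 12 neuron replicate 2. Of nmy-2 there were 240 reads in dauer replicate 2, 61 in L2, 2 and 22 in young adult muscle, 16 and 6 in multiple tissues, 8 in young adult neuron replicate 2 and 1 in each day 12 neuron library. Dauer replicate 2 is the deepest library, and its counts correspond to 20.3 CPM of nmy-1 and 22.5 CPM of nmy-2. In 5 of the 6 groups of 2 libraries one of the pair held no read of nmy-1, and in dauer and young adult neurons one held no read of nmy-2. Neither gene was called by edgeR in any of 10 comparisons, with adjusted p from 0.154 to 0.866 for nmy-1 and from 0.233 to 1 for nmy-2, and no comparison had an unadjusted p under 0.05. The authors' deposited table lists neither as enriched in any comparison with multiple tissues. For nmy-1 in young adult neurons it still gives a fold change of 176 with an authors' adjusted p of 0.0178, where replicate 1 held all 18 reads.

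Reads on the strand opposite to nmy-2 exceeded its own trans reads in 11 of 14 SL1-tag libraries, the exceptions being both multiple-tissue libraries and dauer replicate 2. The main antisense site lies in its intron 3, at chromosome I, 7933486, plus strand. It had 118 reads in L1, 268 in L2, 4 and 0 in dauer, 4 and 42 in young adult muscle, 11 and 149 in day 12 muscle, 20 and 10 in young adult neurons and 2 and 16 in day 12 neurons. Both multiple-tissue libraries had 0. The WBcel235 annotation has no gene on the plus strand at this position. Antisense sites as a class held 0.049% and 0.0509% of site reads in multiple tissues, 0.287% to 1.61% in SL1-tag muscle libraries and 4.31% to 5.57% in neurons.

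Other genes of the myosin family were described from a list of 16: unconventional myosins, pharyngeal heavy chains and further light chains. Of these 14 had an entry, 6 were tested, and mlc-5 was the sole one called in any comparison. The gene encodes a nonmuscle essential light chain. Its CPM was 407 and 412 in multiple tissues, 138 and 157 in young adult muscle, 67.1 and 70.1 in dauer, and 39.9 and 18.1 in young adult neurons. It was lower than in multiple tissues in young adult neurons (log2 fold change -3.82 ± 0.71, edgeR adjusted p = 0.00589), a call that held with each library left out. It was also lower in dauer (-2.58 ± 0.66; edgeR adjusted p = 0.0407), and higher in young adult muscle than in young adult neurons (2.34 ± 0.68; 0.0481). The dauer call was lost without either library of multiple tissues, dauer or young adult muscle, and the last call without either library of multiple tissues, young adult muscle or young adult neurons (edgeR adjusted p from 0.0553 to 0.269 and from 0.0587 to 0.169). DESeq2's Wald test did not call the difference between young adult muscle and neurons. With DESeq2's size factors the edgeR values were -2.38 (adjusted p = 0.0572) in dauer and 1.21 (0.284) between young adult muscle and neurons, and no filter (0.0903 and 0.13) and the replicate block (0.099 and 0.117) ended both calls. Without dauer replicate 2 and both day 12 muscle libraries they were -2.71 (edgeR adjusted p = 0.0139) and 2.42 (0.00805). Between the same groups mlc-4 and mlc-5 lay in opposite order, with mlc-4 above and mlc-5 below in young adult neurons relative to young adult muscle.

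A list of 19 partners held chaperones of myosin, giant and M-line proteins of the thick filament, and kinases, a phosphatase and other regulators of nonmuscle myosin. Of these 18 had an entry and 14 were tested. In young adult muscle 2 of the 14 were called higher than in multiple tissues and 0 lower (5.12% of all tested genes were called), in larvae (7.01%) and in dauer (7.45%) also 2 and 0, and on day 12 (9.82%) 1 and 0. The median log2 fold change of the 14 was -1.37 in young adult muscle against 0 for all tested genes, and -1.53 for the 6 tested genes of the other list, both including genes without reads in a group, whose fitted values depend on edgeR's prior count. The gene unc-96, which encodes an M-line protein that acts with paramyosin, was called higher in all 4 of these muscle comparisons.

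The M-line gene unc-96 had 0 trans reads in multiple tissues and in neurons. In muscle it had 90 reads in L1, 52 in L2, 162 and 270 in dauer, 120 and 172 in young adults, and 6 and 134 on day 12. Young adult muscle stood at least 183-fold above multiple tissues (at least 70.2-fold with any 1 library left out; edgeR adjusted p = 0.0389). The bounds in larvae, dauer and on day 12 were 123-fold, 73.8-fold and 65.7-fold (edgeR adjusted p = 0.0403, 0.0413 and 0.0392), and 47.3-fold, 28.3-fold and 12.7-fold at the lowest with 1 library left out. Limma did not call the day 12 difference (adjusted p = 0.0748), and without dauer replicate 2 and both day 12 muscle libraries the dauer call held (edgeR adjusted p = 0.00548). Each of these 4 calls was lost without either library of multiple tissues or of young adult muscle (edgeR adjusted p up to 0.202), and some also without 1 dauer library, L1, day 12 muscle replicate 2 or 1 day 12 neuron library. Young adult muscle against young adult neurons was called too (edgeR adjusted p = 0.0472), but with cis reads, of which young adult neurons had 51 and 41, the log2 fold change was 0.20. That call was also lost with DESeq2's size factors, and without L1, either day 12 neuron library, or either young adult library of muscle or neurons.

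Across the 14 SL1-tag libraries, the genes whose log2 CPM followed each member most closely were found among 981 tested genes with a symbol and a mean log2 CPM of at least 5. For mlc-2 they were lec-5, a galectin gene (Pearson's r = 0.96), mup-2, the troponin T gene of body-wall muscle (0.96), and dim-1, an immunoglobulin-domain protein of muscle (0.95). For myo-3 they were iff-2 (0.90), far-1 (0.89) and the actin gene act-1 (0.87). For mlc-4 they were dnj-23 (0.79), lsy-22 (0.77) and rpb-11 (0.76). The closest genes to nmy-1 (hpl-1, hil-1 and flp-10) and nmy-2 (unc-57, ekl-1 and vha-10) reached 0.57 to 0.60 and 0.53 to 0.58. The 14 libraries come from 8 groups and share their depth and tissue differences, so these values are a description of likeness only.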

How the data were processed

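Gene counts, deposited by the authors, are whole reads per gene for 15 libraries; per the labels, tagged RNA was pulled down, amplified by PCR and cut by Tn5. The authors' gene count equals the sum of reads at a gene's trans sites in 99.9946% of gene and library pairs. The deposited RPM values are these counts divided by 1 number per library, whose meaning is not given in the sources used here. Deposited tables of comparisons give the authors' fold (a ratio of group means) with their adjusted p-value, and further deposited columns hold other, true-or-false calls. Trimmomatic, TopHat2 and DESeq are named in the submitters' processing notes, without versions. Left unused were 3 per-sample columns in each of 3 deposited files, since their names match no library here.

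Gene counts of the 14 SL1-tag libraries were fitted with edgeR 4.0.16 (R 4.3.3; TMM, filterByExpr, quasi-likelihood F test, 8 group means, 6 residual degrees of freedom), which tested 8954 genes. Larval muscle is the mean of the L1 and L2 groups. The Benjamini-Hochberg adjustment ran over all tested genes (threshold 0.05), and SE is the absolute log2 fold change over the square root of F. A fold against a group without reads is a bound from 3 counts over that group. Bounds and intervals cover counting error only, since these PCR reads carry no molecular identifiers and are not independent. Replicates are labelled biological, and the spread is pooled over groups, so a lone library is assumed to vary like the others.

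As alternatives served the size factors of DESeq2 1.42.0 in edgeR, its Wald test, no filter, a replicate block, limma 3.58.1 on log2(RPM + 1) where RPM reached 1 in 2 libraries (8455 genes), reads at trans and cis sites, leaving out the 3 libraries named as standing apart, and leaving out each library. Leaving out libraries in the fit of trans and cis reads was chosen after seeing the data. The fits were tested on simulated data with less spread between libraries than these data have, so that test cannot show how well they do here. Sites were placed on the Ensembl release 115 annotation of WBcel235. Sites on the plus strand were shifted by 1 base, since without the shift 0.446% of such cis sites met an exon start.

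The 9 members and the lists were chosen with earlier results of these data known. Named are all members, the members of the 2 further lists past the threshold (up to 4 per comparison, 1 of which is not reported here), and 3 most alike genes for members with reads in at least 6 libraries. Protein, promoter and genome sequences were not used here.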

Additional observations from a re-analysis of the deposited data

Results flagged for a closer look

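At several sites outside the gene counts, members had reads in 1 library or more and none in either multiple-tissue library. The exon 3 acceptor of mlc-3 had 16531 reads in L2. The exon 4 acceptor of unc-54 had 263 reads in L2. Of the unc-15 acceptors, exon 6 had 131 reads in dauer replicate 2, and exon 11 had 299 reads in the SL2-tag library. The antisense site in intron 3 of nmy-2 had 268 reads in L2. In the SL2-tag library, which has no replicate, mlc-2 had 496 reads.

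In young adults, muscle and neurons lay on opposite sides of multiple tissues for mlc-2 and mlc-4. On day 12, with TMM scaling, they lay on the same side for both, and only mlc-2 in muscle was called. DESeq2's size factors put mlc-4 on day 12 on opposite sides, at a log2 fold change of -0.57 in muscle and 0.83 in neurons. For mlc-2 young adult muscle lay above and young adult neurons below, and the direct comparison gave at least a 3011-fold difference (edgeR adjusted p = 9.51e-05). For mlc-4 the order was the reverse, with a log2 fold change of -1.93 between young adult muscle and young adult neurons (edgeR adjusted p = 0.0323). Neither mlc-4 difference from multiple tissues was called (0.373 and 0.14), and the direct call was lost with limma, no filter, trans and cis reads or a replicate block (adjusted p from 0.0519 to 0.0783), and without any of 6 libraries.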

How the results depend on the processing

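The 4 higher calls of mlc-2 in muscle, and its call between young adult muscle and neurons, held under every setting. Members called changed as follows, with the number of all genes called under the same setting in parentheses. In larvae, where 2 were called (628), DESeq2's Wald test (1487), limma (2448), no filter (1372) and leaving out the 3 libraries (3224) gave 3. With DESeq2's Wald test 3 were also called in dauer (1408) and 2 in young adult muscle (1201). The same test gave 2 in young adult neurons (2060), 1 in day 12 neurons (1736) and 1 between young adult and larval muscle (818). DESeq2's size factors in edgeR gave 2 in young adult neurons (1351) and 1 in day 12 neurons (1162). Limma gave 2 in dauer (2376), 2 in young adults (1992) and 1 in day 12 neurons (4226). No filter gave 2 in dauer (1255), 2 on day 12 (1604) and 2 in young adults (1024). It also gave 1 in day 12 neurons (1838) and 1 between day 12 and young adult muscle (612). Trans and cis reads gave 4 in larvae (1258), 2 on day 12 (1238) and 1 between young adult muscle and neurons (1906). Leaving out the 3 libraries called 2868 genes in young adults, 4267 in young adult neurons and 3244 between young adult muscle and neurons. It called 3631 in day 12 neurons and 1588 between young adult and larval muscle. Without these 3 libraries (dauer replicate 2 and both of day 12 muscle) the members called were 3 in young adults, 3 in young adult neurons and 3 between young adult muscle and neurons. They were 1 in day 12 neurons and 1 between young adult and larval muscle. Dauer comparisons then rest on 1 dauer library and are not counted here.

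With 1 library left out, the count ranged from 1 to 3 in dauer, larvae and between young adult muscle and neurons, from 1 to 2 in young adults, and from 0 to 1 in both neuron groups, between dauer and larvae and between day 12 and young adult muscle. It stayed at 1 on day 12 and at 0 between young adult and larval muscle. All genes called also rose and fell widely in every comparison when 1 library was left out. The changes in member counts are therefore not specific to the members. Whether the members changed more than other genes was not tested. Leaving out a library of a pair also leaves 1 library in that group, which limits what these counts can show.

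Signs that turned belonged to differences that had not passed the threshold. Those of mlc-4 between day 12 and young adult muscle became 0.22 with either DESeq2 setting, and in day 12 neurons 0.83 and 0.82. With 1 library left out, mlc-2 between young adults and larvae ranged from -0.034 to 0.53, mlc-4 between dauer and larvae from -0.0098 to 1.13, myo-3 on day 12 from -2.11 to 7.28, and myo-3 between young adults and larvae from -1.60 to 0.32. The cause was not tested.

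Same-numbered libraries did not deviate together (correlations of -0.037 to 0.017), so replicate numbers do not pair them. A replicate block gave 2 members in dauer (751 of all genes were called), 2 in young adults (599) and 1 in day 12 neurons (1170). In larvae (697) and between young adult muscle and neurons (1189) the count stayed at 2, with the mlc-4 calls lost and myo-3 called in their place.

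Over all genes, the counts called ran over the other settings from 452 to 2868 in young adult muscle (458 as reported), 756 to 2756 on day 12 (879), 672 to 2376 in dauer (667), 573 to 3224 in larvae (628), 1351 to 4267 in young adult neurons (1523), 1162 to 4226 in day 12 neurons (1085) and 1084 to 3244 between young adult muscle and neurons (1175). Between muscle stages they were 108 to 882 (139) for day 12 against young adults, 92 to 1588 (109) for young adults against larvae and 261 to 1724 (295) for dauer against larvae. Day 12 neurons hold 57104 and 112074 reads, and L1 and L2 have no replicate, which limits what could be detected there.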
